A study of Mus musculus with 8 samples.

Results

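Tight and adherens junction genes were followed through the earliest steps of mouse development: the claudins Cldn4, Cldn6 and Cldn7, occludin (Ocln), the scaffold Tjp1, the adhesion molecule F11r, the cadherins Cdh1 and Cdh2, and Epcam. These 9 genes were chosen by name, with earlier results of these data known. Every probe set annotated to one of them alone was read, 13 probe sets of the 45101 on the array and 9 of its 18193 genes. All 13 passed the filter on dim signal, which kept the brighter 50% of probe sets (mean signal of at least 151). A gene with several probe sets is represented by the one with the highest mean log2 signal over all arrays, and the other is called the further probe set.

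The series holds 8 one-colour expression arrays in 6 groups: connexin 43 (Gja1) KO MII oocytes and WT MII oocytes with 1 array each, KO blastocysts and WT blastocysts with 2 arrays each, and KO and WT embryo tissue from the implantation site with 1 array each. The study asked how loss of connexin 43, a gap junction channel protein, alters the transcriptome of early stages. Its title describes the depletion as directed to the oocyte. The driver of the depletion, the strain, the ages, the number of animals pooled and the allele that embryos received from the father are not stated in the labels. No label says that the replicates came from separate animals, so each p-value reflects just the variation among these arrays, which may be technical, and their small number limits the precision of every value.

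Gja1 itself (1437992_x_at) had a signal of 150 in KO oocytes and 126 in WT oocytes. In blastocysts it was 375 and 553 in KO, against 9835 in WT replicate 1 and 574 in the array labelled WT replicate 2. Implantation sites had 28105 in KO and 44493 in WT. Thus the array labelled WT replicate 2 lay near the KO blastocysts for this gene, and the KO implantation site carried abundant Gja1. The labels do not state whether this probe set lies in the deleted part. The brightest of 27 Bacillus control probe sets, used as the background level of each array, ranged from 131 to 588, which assumes that no Bacillus RNA was added. It was highest in the KO oocytes (588) and in the KO blastocysts (535 and 560), against 171 in WT oocytes and 322 and 345 in WT blastocysts.

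Markers placed the samples. Summed over 7 oocyte markers, the signal was 66929 in KO oocytes and 102880 in WT oocytes, although Zp3 lay below the background level on all 8 arrays. The 8 trophectoderm markers summed to 60214 and 60563 in KO blastocysts and to 53449 and 66924 in WT blastocysts, with all 8 above background. In implantation site arrays they summed to 5157 in KO and 3135 in WT, most of it from Tfap2c (3893 in KO and 1752 in WT). There 10 uterine stroma and decidua markers summed to 79979 in KO and 67752 in WT, with the progesterone receptor Pgr the brightest at 30636 in KO and 27384 in WT. Not all of them were bright: Prl8a2 read 217 in KO and 211 in WT, below its 708 in KO and 588 in WT oocytes. Wnt4 read 385 in KO and 432 in WT, and Des 26.6 in KO (below background) and 356 in WT. The 8 uterine epithelium markers summed to 1579 in KO and 2451 in WT there, with 5 above background in each. The implantation site arrays, labelled as embryo, therefore carried strong signal of several uterine stroma genes. In such bulk samples fewer cells of a type and less RNA per cell cannot be told apart.

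Tight junctions seal the space between neighbouring epithelial cells: claudins form the sealing strands, occludin and F11r (JAM-A) are further membrane proteins, and Tjp1 (ZO-1) ties them to actin. Adherens junctions hold cells together through cadherins, E-cadherin (Cdh1) in epithelia and N-cadherin (Cdh2) in many other tissues. In the mouse embryo, E-cadherin mediates compaction, and the trophectoderm, the first epithelium, seals the blastocyst so that its cavity can fill. Epcam is an epithelial adhesion protein that binds claudin-7.

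RefSeq promoter sequences (GRCm38.p6) were at hand for 7 of the 9 genes, with 9 start sites. Those of Cldn4, Cldn7, F11r and Epcam are shown as examples of genes higher in blastocysts than in oocytes and lower at the implantation site than in blastocysts. Cldn6 had the same calls but was near background, and its sequence is left out. Each is the 250 bases before a start site on the strand of the gene, and capitals mark the E-box CACCTG bound by Snail and Zeb repressors, the GC box GGGCGG and the TEAD motif GGAATG, on either strand. They lie at chr5:134946935-134947184 on the minus strand (Cldn4), chr11:69964529-69964778 on the plus strand (Cldn7, its first listed start), chr1:171437311-171437560 on the plus strand (F11r) and chr17:87635729-87635978 on the plus strand (Epcam).
Cldn4: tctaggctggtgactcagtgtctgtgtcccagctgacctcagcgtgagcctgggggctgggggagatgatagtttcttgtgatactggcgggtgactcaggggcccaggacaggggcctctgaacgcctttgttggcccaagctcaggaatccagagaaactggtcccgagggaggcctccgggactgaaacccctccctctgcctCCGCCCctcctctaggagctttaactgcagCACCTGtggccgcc
Cldn7: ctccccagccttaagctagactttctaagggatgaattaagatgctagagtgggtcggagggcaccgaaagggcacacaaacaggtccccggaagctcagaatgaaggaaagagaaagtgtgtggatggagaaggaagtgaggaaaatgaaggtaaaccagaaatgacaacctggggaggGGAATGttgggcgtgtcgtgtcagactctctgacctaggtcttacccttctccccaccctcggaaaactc
F11r: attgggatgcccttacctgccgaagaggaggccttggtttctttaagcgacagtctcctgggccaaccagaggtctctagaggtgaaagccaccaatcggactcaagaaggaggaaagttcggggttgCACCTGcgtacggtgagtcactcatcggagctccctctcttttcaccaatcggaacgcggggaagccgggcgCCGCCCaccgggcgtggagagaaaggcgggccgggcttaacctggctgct
Epcam: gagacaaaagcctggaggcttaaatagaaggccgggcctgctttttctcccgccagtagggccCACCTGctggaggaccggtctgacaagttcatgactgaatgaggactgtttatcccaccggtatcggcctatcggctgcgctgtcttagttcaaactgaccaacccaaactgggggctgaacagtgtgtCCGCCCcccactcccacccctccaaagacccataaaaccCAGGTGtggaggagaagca
CACCTG was found before 6 of the 9 member starts, against 17.2% of 32851 promoters, and GGGCGG before 8 of 9, against 32.7%. The AP-2 motif GCCNNNGGC was before 1 of 9 (13.7% of all) and overlapped a GC box at an Ocln start. GGAATG was before 1 of 9 (12.6% of all), and the grainyhead motif AACCGGTT before none of the 9 (0.116% of all). The GC content was 51.2% to 69.2% at the member starts, against a median of 52.4% over all promoters. Cldn7 and Ocln each have more than 1 start, and the Ocln windows overlap, so the 9 starts are not independent. These matches describe letters only.

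The clearest pattern was one of stage. In blastocysts 7 of the 9 genes were higher than in oocytes, Cldn4, Cldn6, Cldn7, Ocln, F11r, Cdh1 and Epcam, while Cdh2 was lower and Tjp1 did not pass the test. At an adjusted p under 0.05 over 22519 probe sets (limma, additive fit of stage and genotype on 8 arrays), 25.2% of all probe sets were higher in blastocysts and 15.6% lower, 40.9% in all. The implantation site had 6 of the 9 lower than in blastocysts and 1, Cdh2, higher, against 17.8% lower and 13.1% higher, 30.9% in all, among all probe sets. Relative to oocytes it had 2 of the 9 higher, Cldn7 and Tjp1, and 2 lower, Cdh1 and Cdh2, against 19.7% higher and 14% lower, 33.7% in all. Because the genes were chosen with earlier results of these data known, these counts describe the 9 genes and do not test them as a set. The median of the 9 genes was 1.99 (log2) for blastocyst minus oocyte and -2.77 for implantation site minus blastocyst, against 0.47 and -0.31 over all probe sets; with every value below background set at that level the medians of the 9 genes were 1.45 and -2.31. Some calls were false in data simulated with each probe set's estimated spread. Their share was 8.42% for blastocyst minus oocyte, 19.6% for implantation site minus blastocyst and 17.4% for implantation site minus oocyte. All were above the 5% aimed at. With spreads drawn from the fitted prior the shares were 10.8%, 4% and 6.67% in the same order. Far fewer probe sets were changed in these simulations than were called here, so the shares cannot be carried over to the stage calls.

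**Figure D1:**
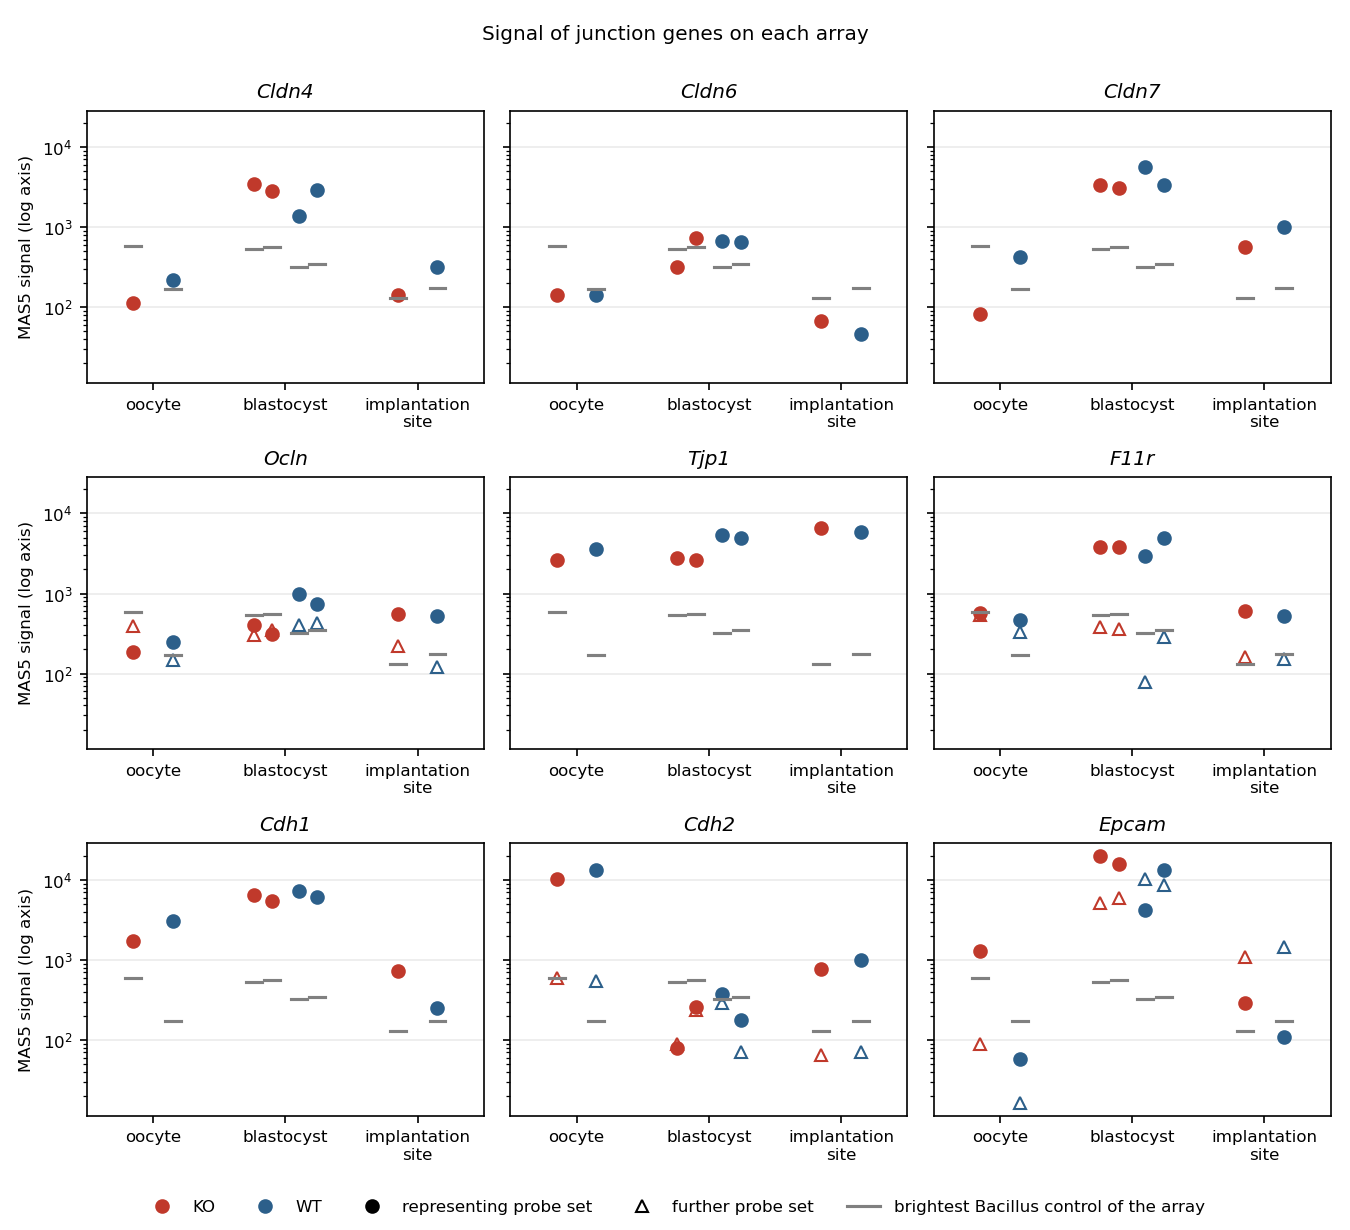
MAS5 signal (log axis) of the 9 junction genes on each of the 8 arrays by stage, KO left of WT. Filled circles are the representing probe set, open triangles the further one, and grey bars the brightest Bacillus control of each array. Cldn4, Cldn7, F11r, Cdh1 and Epcam peak in blastocysts, Cdh2 is brightest in oocytes, and Tjp1 is above the grey bars on all arrays.

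Claudins 4 and 7 were bright in blastocysts and dim in oocytes. Cldn4 (1418283_at) read 113 in KO and 221 in WT oocytes, 3496 and 2790 in KO blastocysts, 1385 and 2889 in WT blastocysts, and 143 in KO and 318 in WT implantation sites. All blastocyst arrays lay above all others. The KO oocyte array was below background; set at that level, blastocysts were at least 6.94-fold higher than oocytes (fitted log2 3.98, SE 0.52, limma adjusted p = 9.97e-05), and the implantation site was 11.7-fold lower than the blastocyst (log2 -3.55, SE 0.52, adjusted p = 0.000559).

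Cldn7 (1448393_at), the claudin that partners Epcam, read 82.2 in KO and 423 in WT oocytes, 3350 and 3057 in KO blastocysts, 5588 and 3398 in WT blastocysts, and 563 in KO and 1008 in WT implantation sites. The 3 stages did not overlap. With the KO oocyte array, which was below background, set at that level, it was at least 7.49-fold higher in blastocysts than in oocytes (fitted log2 4.32, SE 0.44, limma adjusted p = 1.76e-05). It fell 4.96-fold at the implantation site relative to blastocysts (log2 -2.31, SE 0.44, adjusted p = 0.00268) and was still higher there than in oocytes, at least 1.51-fold by the same rule (fitted log2 2.01, adjusted p = 0.0102). That last call was lost without the KO oocyte array (log2 1.12, adjusted p = 0.111) and without the KO implantation site array (log2 1.89, adjusted p = 0.0667).

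Cldn6, a claudin of embryonic epithelia, was near background. Its probe set (1417845_at) read 143 in KO and 144 in WT oocytes, 316 and 736 in KO blastocysts, 679 and 661 in WT blastocysts, and 66.8 in KO and 45.9 in WT implantation sites. It passed background on 3 of the 4 blastocyst arrays and on no array of the other stages. With oocyte and implantation site arrays set at background, it was 1.80-fold higher in blastocysts than in oocytes (limma adjusted p = 0.0307, kept in 10 of 18 alternatives). It was 3.77-fold lower at the implantation site than in blastocysts (limma adjusted p = 0.00303, kept in 18 of 18). KO blastocyst replicate 1 was itself below background, so neither fold is a lower bound. The first call was lost without either oocyte array, KO blastocyst replicate 2 or either WT blastocyst array (log2 1.82 to 2.05, limma adjusted p = 0.0724 to 0.125). In all bounds given as at least, dim arrays below background are set at it, a rule applied to single arrays after seeing the data.

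F11r, an immunoglobulin-type adhesion molecule of tight junctions, was highest in blastocysts too. Its brighter probe set (1424595_at) read 563 in KO and 463 in WT oocytes, 3800 and 3788 in KO blastocysts, 2928 and 4991 in WT blastocysts, and 601 in KO and 519 in WT implantation sites. The blastocyst was at least 7.30-fold higher than the oocyte, where the KO array was just below background (fitted log2 2.90, SE 0.33, limma adjusted p = 4e-05) and the implantation site 6.81-fold lower than the blastocyst (log2 -2.77, SE 0.33, adjusted p = 0.000155), and implantation site and oocyte did not pass the test (log2 0.13, adjusted p = 0.824). The further probe set (1436374_x_at) was below background on all 4 blastocyst arrays, at 379 and 364 in KO and 77.6 and 284 in WT, and did not pass the test in a stage comparison. With the mean of both probe sets the blastocyst minus oocyte call was lost (adjusted p = 0.0684).

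Occludin was dim throughout. Its brighter probe set (1448873_at) read 185 in KO and 245 in WT oocytes, 404 and 312 in KO blastocysts, 990 and 730 in WT blastocysts, and 552 in KO and 523 in WT implantation sites. Both KO blastocyst values lay below background. The blastocyst minus oocyte difference (fitted log2 1.37, SE 0.50) just passed (limma adjusted p = 0.0476), a call kept in 9 of 19 alternatives. With the KO oocyte array set at background it was 1.45-fold, not a lower bound as the KO blastocysts were below background too. It was lost without either oocyte array, KO blastocyst replicate 1 or either WT blastocyst array (log2 1.16 to 1.57, adjusted p = 0.0798 to 0.212). The further probe set (1440220_at) read 398 in KO and 150 in WT oocytes, 302 and 353 in KO blastocysts, 402 and 433 in WT blastocysts, and 222 in KO and 121 in WT implantation sites, and passed in no stage comparison.

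Tjp1, the ZO-1 scaffold, was well above background on every array. Its probe set (1417749_a_at) read 2603 in KO and 3644 in WT oocytes, 2783 and 2638 in KO blastocysts, 5304 and 4908 in WT blastocysts, and 6568 in KO and 5875 in WT implantation sites. Oocytes and blastocysts overlapped (log2 0.27, SE 0.31, limma adjusted p = 0.523). The implantation site was 2.02-fold higher than the oocyte (log2 1.01, SE 0.36, adjusted p = 0.048), a call kept in 8 of 18 alternatives. It was lost without either oocyte array, either KO blastocyst array, the blastocyst array labelled WT replicate 2 or the KO implantation site array (log2 0.55 to 1.05, adjusted p = 0.0703 to 0.333).

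**Figure D2:**
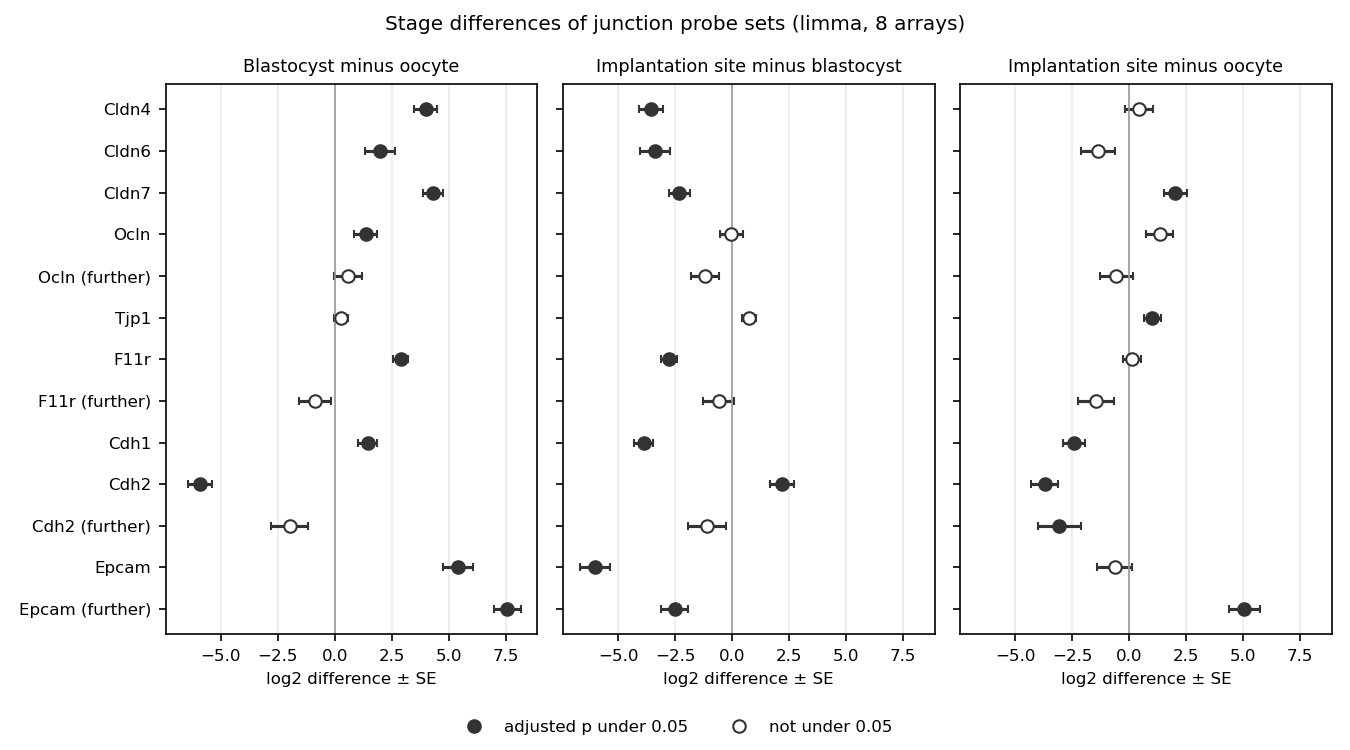
Log2 differences between stages with standard errors (limma, 8 arrays) for the 13 junction probe sets. Filled points have an adjusted p under 0.05. Points are fitted values that include signals below background, so those of dim groups (Epcam and Cldn6 in oocytes, Cdh2 in blastocysts, Cldn6 at the implantation site) are not exact sizes. Both Epcam probe sets are filled to the right of 0 and the representing Cdh2 probe set to the left of it for blastocyst minus oocyte.

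The cadherins moved in opposite directions from oocyte to blastocyst and from blastocyst to implantation site, while both were lower at the implantation site than in oocytes. Cdh1 (1448261_at) read 1747 in KO and 3045 in WT oocytes, 6482 and 5468 in KO blastocysts, 7351 and 6043 in WT blastocysts, and 718 in KO and 254 in WT implantation sites. E-cadherin signal was thus already well above background in oocytes. It was 2.73-fold higher in blastocysts (log2 1.45, SE 0.42, limma adjusted p = 0.0161, kept in 15 of 19 alternatives), a call lost without the KO oocyte array (log2 0.85, adjusted p = 0.254). At the implantation site it was 14.8-fold lower than in blastocysts (log2 -3.88, SE 0.42, adjusted p = 7.69e-05) and 5.40-fold lower than in oocytes (adjusted p = 0.00247).

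Cdh2 (1418815_at) read 10244 in KO and 13091 in WT oocytes, 78.9 and 258 in KO blastocysts, 371 and 177 in WT blastocysts, and 766 in KO and 1011 in WT implantation sites. The egg was the stage with the most N-cadherin signal, and 1 of the 4 blastocyst arrays was above background. With the other 3 set at background, blastocysts were at least 26.2-fold lower than oocytes (fitted log2 -5.92, SE 0.51, limma adjusted p = 5.76e-06). By the same rule the implantation site was at least 1.99-fold higher than the blastocyst (fitted log2 2.20, SE 0.51, adjusted p = 0.0079), a call lost without the KO implantation site array (log2 2.06, adjusted p = 0.0921) and with the mean of both probe sets. That call was also lost with KO arrays only. Relative to oocytes, the representing probe set was 13.2-fold lower at the implantation site (log2 -3.72, limma adjusted p = 0.00061), a call kept in 19 of 19 alternatives. The further probe set (1449244_at) was above background in oocytes alone, at 598 in KO and 548 in WT. It was at least 3.79-fold lower at the implantation site than in oocytes (limma adjusted p = 0.026). For blastocyst minus oocyte it was not called, at least 1.34-fold lower (log2 -1.98). Nor was it called for implantation site minus blastocyst, where its log2 difference was -1.10, opposite to the representing probe set, with all of these arrays below background.

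Epcam had the widest range, and its 2 probe sets disagreed at several points. The representing probe set (1447899_x_at) read 1309 in KO and 58.2 in WT oocytes, 19975 and 15661 in KO blastocysts, 4239 and 13430 in WT blastocysts, and 287 in KO and 109 in WT implantation sites. The further one (1416579_a_at) read 88.9 in KO and 16.1 in WT oocytes, 5173 and 5902 in KO blastocysts, 10331 and 8568 in WT blastocysts, and 1088 in KO and 1456 in WT implantation sites. Both were highest in blastocysts.

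The representing Epcam probe set was below background in WT oocytes and in the WT implantation site. With those arrays set at background, blastocysts were at least 24.4-fold higher than oocytes by it (fitted log2 5.39, SE 0.66, limma adjusted p = 6e-05; 3.76 with KO arrays only and 7.02 with WT arrays only) and at least 22.8-fold higher by the further one (adjusted p = 2.9e-06). The implantation site was at least 51.7-fold lower than the blastocyst by the representing probe set (adjusted p = 8.14e-05) and 5.73-fold lower by the further one (adjusted p = 0.00757). Between implantation site and oocyte they parted: the representing probe set did not pass (log2 -0.64, adjusted p = 0.555), while the further one was at least 3.97-fold higher at the implantation site (adjusted p = 0.000197).

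Calls depended on how arrays were scaled in part. Scaling each array to a common median moved the median of all probe sets by -0.17 for blastocyst minus oocyte, and 4 of the 9 genes were then higher, with Cldn6, Ocln and Cdh1 lost. For implantation site minus blastocyst it moved the median by 0.36, and 56.6% of all calls were then higher, against 42.5% as deposited.

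Neighbouring junction genes, from lists chosen by function with earlier results of these data known, shared the pattern unevenly. Their counts stand against 25.2% of all probe sets higher and 15.6% lower in blastocysts than in oocytes. For implantation site minus blastocyst the shares were 13.1% higher and 17.8% lower. Of 7 desmosome genes tested 5 were higher in blastocysts than in oocytes and 1 lower, with a list median of 3.61 on the log2 scale, or 2.74 with values below background set at it. The plaque protein Dsp was at least 15.6-fold higher, the desmosomal cadherins Dsc2 at least 5.14-fold and Dsg2 at least 10.7-fold, Perp at least 10.9-fold and the plakophilin Pkp2 6.68-fold. Dsc2 was below background on both oocyte arrays, and Dsp, Dsg2 and Perp on 1 of 2. Implantation sites had 5 of 7 lower than in blastocysts, Dsp 6.58-fold and Dsc2 at least 9.19-fold, and 1, Pkp4, higher (2.15-fold). Dsp read 204 in KO and 630 in WT oocytes, 10857 and 7676 in KO blastocysts, 11211 and 8593 in WT blastocysts, and 1711 in KO and 1208 in WT implantation sites.

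Of 9 other claudins tested none was higher and 1 was lower in blastocysts than in oocytes, Cldn12 (log2 -1.88), with a median of 0.04. Many of these signals were below background, so a median near 0 does not show steady expression. Of the 16 other claudins with a probe set, 2 to 3 were above background in KO blastocysts and 5 in WT blastocysts. In oocytes 3 were above it in KO and 9 in WT. Cldn19 and Cldn9 were called lower at the implantation site than in blastocysts; Cldn9 was below background on all 6 of these arrays and Cldn19 on 5 of 6, so no fold is given. Of 19 other tight junction and polarity genes 3 were higher in blastocysts than in oocytes, among them Marveld3, a relative of occludin (at least 3.46-fold, with 1 oocyte array below background), and 4 lower, among them the scaffold Mpdz (at least 8.07-fold). Over all probe sets 25.2% were higher and 15.6% lower in that comparison. Lower at the implantation site than in blastocysts were 8 of the 19, among them Pard6b (9.36-fold), Tjp3 (3.73-fold) and the Crumbs protein Crb3 (5.18-fold), and 1, Mpdz, was higher there (at least 4.64-fold). The Tjp3 fold, with the implantation site set at background, is not a lower bound, as both KO blastocyst arrays were below background. Mpdz was below background on all 4 blastocyst arrays. It read 3246 in KO and 3663 in WT oocytes, 62.5 and 109 in KO blastocysts, 175 and 47.5 in WT blastocysts, and 1947 in KO and 2017 in WT implantation sites.

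Of 15 other adherens junction genes 5 were higher and 4 lower in blastocysts than in oocytes, against 25.2% and 15.6% of all probe sets. The nectin Nectin2 (at least 3.99-fold), Lima1 (at least 3.46-fold), plakoglobin Jup (at least 3.04-fold) and vinculin Vcl (at least 3.76-fold) were higher, with both oocyte arrays below background for Nectin2 and 1 for the others, and beta-catenin Ctnnb1 was 4.41-fold lower. Relative to blastocysts, 4 were higher and 5 lower at the implantation site, against 13.1% and 17.8% of all probe sets. Cadherin 11 (Cdh11), a cadherin of mesenchyme, was at least 21.0-fold higher (limma adjusted p = 0.000117) and below background on all 4 blastocyst arrays, with 9523 in KO and 8485 in WT implantation sites, 274 and 244 in KO blastocysts, and 32.2 and 180 in WT blastocysts. Nectin1 (at least 7.03-fold, below background on both implantation site arrays) and Lima1 (at least 11.2-fold, below it on 1 of 2) were lower.

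**Figure D3:**
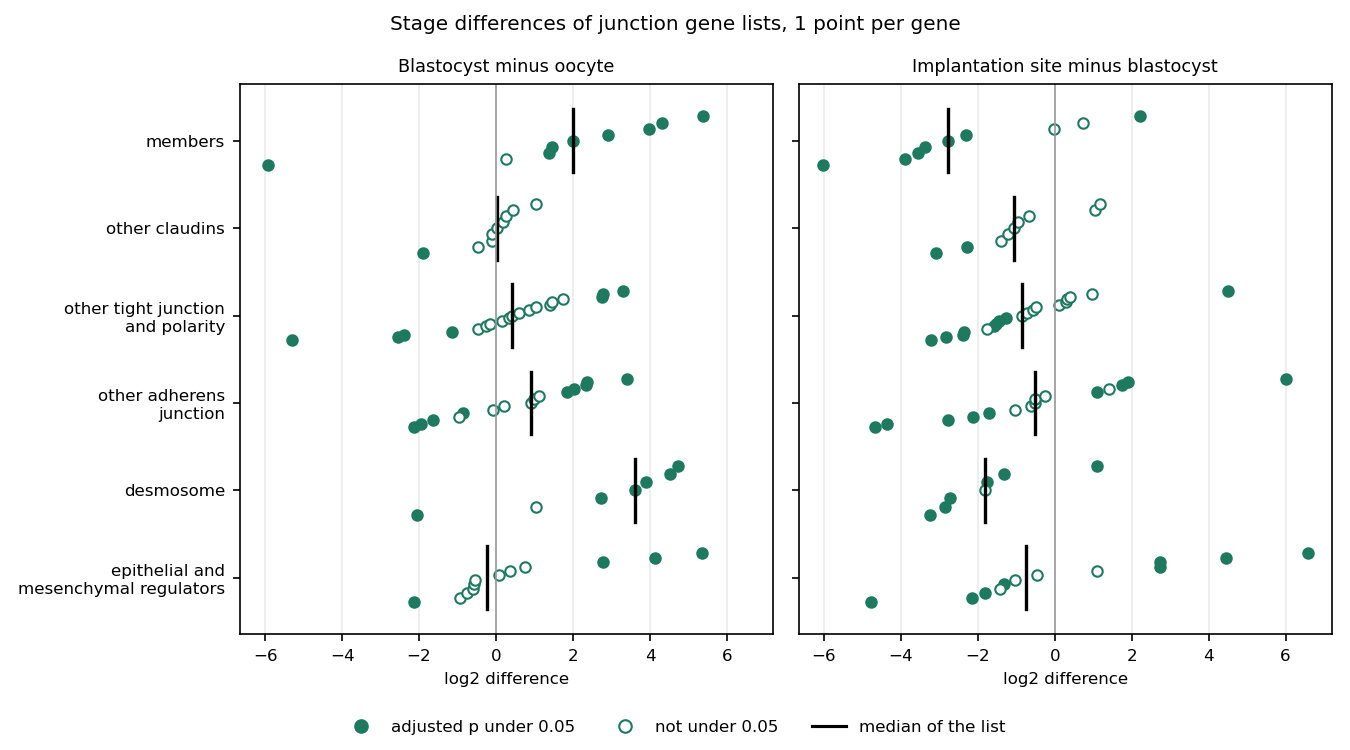
Log2 differences between stages for the 9 members and 5 lists of related genes, 1 point per gene, filled at an adjusted p under 0.05, with the list median as a bar. Points are fitted values that include signals below background. Desmosome genes have a median of 3.61 for blastocyst minus oocyte and -1.82 for implantation site minus blastocyst, while other claudins lie near 0 in the first comparison at a median of 0.04.

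Among 12 transcription regulators of epithelial and mesenchymal genes, Tfap2a (AP-2 alpha, at least 26.5-fold), Klf5 (at least 7.05-fold) and Snai1 (1.72-fold) were higher in blastocysts than in oocytes. These 3 of 12 are near the 25.2% of all probe sets. For Snai1 1 KO blastocyst array was also below background, so its fold is not a lower bound. Oocyte arrays were below background for Tfap2a and Snai1, and 1 of 2 for Klf5. Zeb2 was called lower, with 1 of these 6 arrays above background and no fold given. Relative to blastocysts, 4 were higher and 4 lower at the implantation site, against 13.1% and 17.8% of all probe sets. The higher ones were the repressors of epithelial genes Snai2 (at least 87.5-fold), Zeb2 (at least 3.93-fold), Zeb1 (at least 6.70-fold) and Twist2 (at least 1.75-fold), and Tfap2a was 27.3-fold lower. Zeb2 and Twist2 were below background on all 4 blastocyst arrays, and Snai2 and Zeb1 on 1 of 4. Snai2 read 46980 in KO and 32616 in WT implantation sites, 566 and 399 in KO blastocysts, and 361 and 350 in WT blastocysts. The stroma and trophectoderm marker sums given above moved with these values, and their part in the result was not tested.

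KO and WT blastocysts were compared in a fit of their own 4 arrays. No member passed the test in either direction, while 0.0266% of all probe sets were called higher (6 of 22519) and 0% lower by limma, and 1900 were higher and 1423 lower at an unadjusted p under 0.05. In simulated data for this comparison 0% of 2-fold changes were called. At the unadjusted level 3 of the 9 members counted: Ocln, Tjp1 and Epcam. KO and WT arrays did not overlap for 4 of the 9, Cldn7, Ocln, Tjp1 and Epcam, a share near the 48.6% of all probe sets (24.2% higher and 24.3% lower in KO).

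Tjp1 had signals of 2783 and 2638 in KO blastocysts, against 5304 and 4908 in WT blastocysts, all above background. The log2 difference was -0.91 (SE 0.27, limma adjusted p = 0.219). The representing Ocln probe set differed by -1.26 (SE 0.44, adjusted p = 0.272), with both KO arrays below background and both WT arrays above it. The further Ocln probe set gave -0.35 (adjusted p = 0.769).

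The Epcam probe sets pointed in opposite directions between genotypes. The representing one gave a log2 KO minus WT difference of 1.23 (SE 0.50, limma adjusted p = 0.318) and the further one -0.77 (SE 0.28, adjusted p = 0.282), and neither had overlapping groups. Without the array labelled WT replicate 2, the representing probe set passed (log2 2.06, adjusted p = 0.0207), in a fit of 2 KO arrays against a single WT array that is assumed to vary like the KO pair. That array read 13430, against 4239 in WT replicate 1.

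The remaining members gave 0.64 for Cldn4 (limma adjusted p = 0.473), -0.47 for Cldn6 (0.687), -0.45 for Cldn7 (0.546), -0.01 for F11r (0.992), -0.16 for Cdh1 (0.816) and -0.85 for Cdh2 (0.658). No gene of the 5 related lists passed the test. Leukocyte markers summed to 7599 and 13943 in KO blastocysts, with 2 of 6 above background, and to 1316 and 4552 in WT blastocysts, with 1 to 2 above it, and no marker was at 0. Most of this was Csf1r, at 6134 and 11937 in KO and 593 and 3881 in WT. Tyrobp read 1178 and 1842 in KO and 287 and 580 in WT. Ptprc, Cd68, Cd14 and Itgam were below background on all blastocyst arrays, so the sums do not speak for the list. Inner cell mass markers summed to 13727 and 14770 in KO and to 18425 and 26470 in WT. The Actb 3'/5' signal ratio, a measure of RNA integrity and labelling, was 25.7 and 39.0 in KO and 69.3 and 69.1 in WT. The Gapdh ratio went the other way, at 11.2 and 11.8 in KO and 7.27 and 7.71 in WT. The part of these differences in the result was not tested.

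**Figure D4:**
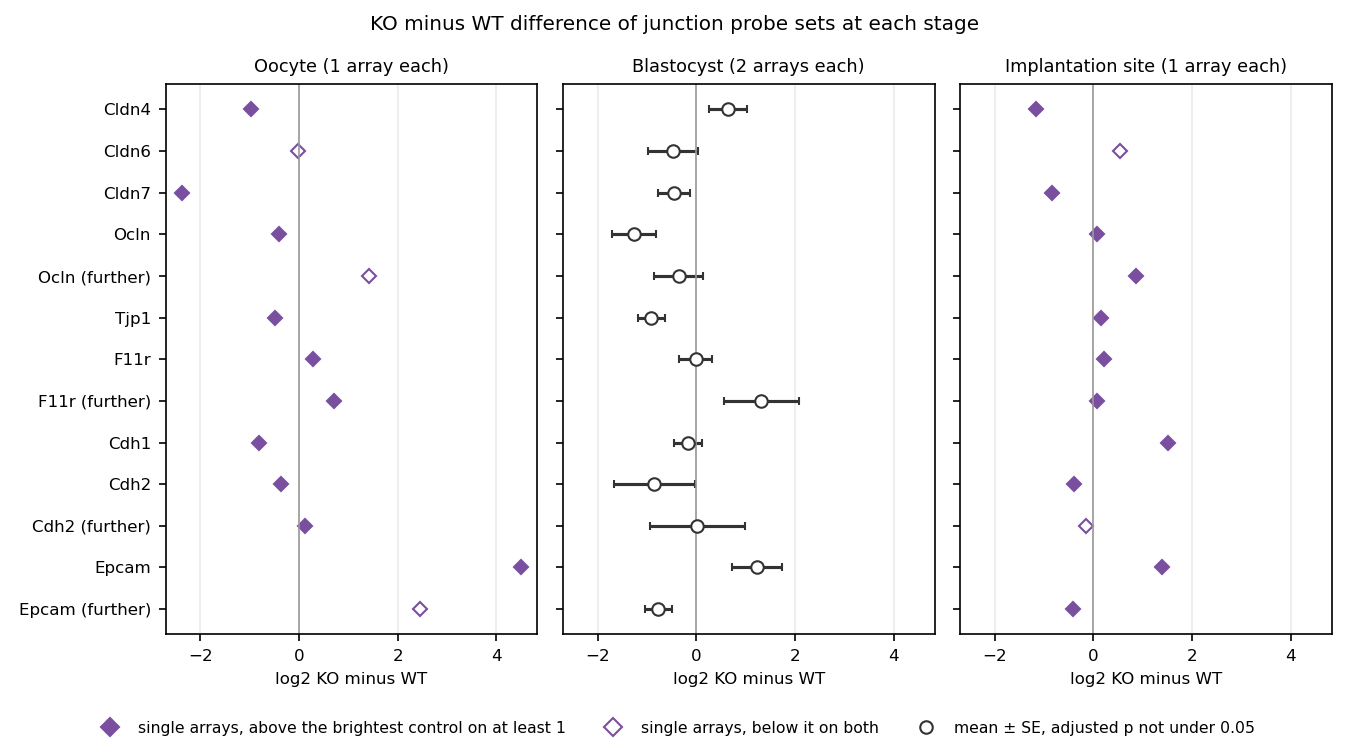
Log2 KO minus WT difference of the 13 junction probe sets at each stage: single arrays in oocytes and implantation sites, means with standard errors over 2 arrays each in blastocysts. No blastocyst point has an adjusted p under 0.05, and the oocyte point farthest to the right, the representing Epcam probe set, sets 1309 in KO against a WT signal of 58.2 that is below background.

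With 1 array per genotype in oocytes and in implantation sites, differences there are values without a replicate check. In oocytes Epcam was the member with the largest difference: 1309 in KO and 58.2 in WT, at least 7.67-fold higher in KO, with the further probe set below background in both. Cldn7 read 82.2 in KO and 423 in WT, but the KO background level of 588 exceeded both, so no fold is given. By signal alone 1 member was at least 2-fold higher in KO and 1 at least 2-fold lower, against 25.8% and 13.5% of all probe sets. Cdh1 read 1747 in KO and 3045 in WT (1.74-fold lower in KO), Tjp1 1.40-fold lower and Cdh2 1.28-fold lower. The Actb 3'/5' signal ratio was 6.68 in KO and 33.4 in WT oocytes, and that of Gapdh 2.41 in KO and 10.1 in WT. The part of these ratios in the oocyte values was not tested. Scaling to a common median moved the median of all oocyte differences by -0.55, and 35.2% of the probe sets past 2-fold were then higher in KO, against 65.7% as deposited.

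At the implantation site Cdh1 read 718 in KO and 254 in WT, 2.83-fold higher in KO. The representing Epcam probe set was at least 1.65-fold higher in KO, at 287 against 109, and the further one 1.34-fold lower, at 1088 against 1456. Cldn4 was 2.23-fold lower, at 143 in KO and 318 in WT, and Cldn7 1.79-fold lower, at 563 in KO and 1008 in WT. By signal 2 members were at least 2-fold higher in KO and 1 lower, against 6.72% and 16.8% of all probe sets. Trophectoderm markers summed to 5157 in KO and 3135 in WT, most of it from Tfap2c (3893 in KO and 1752 in WT). Of the others above background, Eomes was higher in KO (497 against 389). Krt8 (231 against 323) and Krt18 (288 against 551) were lower in KO, so the sum does not speak for the list. The part of these markers in the member values was not tested. Scaling to a common median moved the median of all differences by 0.41, and 61.3% of the probe sets past 2-fold were then higher in KO, against 28.6% as deposited.

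A KO effect common to the 3 stages was called for no member and for 0% of all probe sets (limma, 8 arrays, 0 of 22519), with 826 higher and 710 lower at an unadjusted p under 0.05, 2 members among them. Epcam had a log2 difference of 2.09 (adjusted p = 0.719) by the representing probe set and 0.13 (adjusted p = 0.961) by the further one, and Cldn7 of -1.02 (adjusted p = 0.719). By representing probe set, members were higher in KO for 2, 2 and 6 of 9 genes in oocytes, blastocysts and implantation sites. The median log2 difference of all probe sets was 0.13, 0.0043 and -0.14 in the same order. Many member differences rest on signals below background, which weakens these counts. In KO oocytes these were Cldn4, Cldn6, Cldn7, Ocln and F11r, and in WT oocytes Cldn6 and Epcam. In KO blastocysts they were Ocln and Cdh2 on both arrays and Cldn6 in replicate 1, and in WT blastocysts Cdh2 in replicate 2. At the implantation site they were Cldn6 in both genotypes and Epcam in WT. The further Epcam probe set was lower in KO in blastocysts and implantation sites. The share of all probe sets higher in KO was not counted.

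The members also differed in how alike their profiles were, measured as the root mean square difference of log2 signal centred over the 8 arrays. Ocln and Tjp1 lay closest to each other among the members (0.51), followed by Cldn6 and Cdh1 (0.62), and Cldn4 was closest to F11r (0.71). The measure is not scaled to the range of each gene, so genes that vary little can lie close. Cldn6 was above background on 3 of the 8 arrays and Ocln and Cdh2 on 5, so their distances rest partly on background signal. Cdh2 was far from every other member (2.60 from Tjp1, its nearest). Among all genes the nearest to Cldn6 was Dnmt3b (0.31), to F11r Ncaph2 (0.28), to Cdh1 Dnajc22 (0.38), to Tjp1 Tra2b (0.12) and to Cdh2 Macir (0.29). Macir read 10542 in KO and 15145 in WT oocytes, 100 and 269 in KO blastocysts, 286 and 190 in WT blastocysts, and 803 in KO and 670 in WT implantation sites. Epcam had no near neighbour, with Il4i1 the closest at 0.92.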

How the data were processed

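RNA labelled by the submitters as polyA RNA was hybridised to Affymetrix arrays, and the deposited values are signal intensity per probe set, made by the authors with MAS5 per the submitters' processing notes; the notes used here give no version. Each array has the same 2% trimmed mean. Probe sets were named from the platform annotation: 34945 have 1 gene, 932 several, 9160 none and 64 are controls.

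Intensities were log2 transformed without a pseudocount. Of the non-control probe sets the upper 50% by mean log2 signal (22519) were tested with limma (version 3.58.1, R version 4.3.3; linear fits, eBayes with a trend on intensity; two-sided p-values adjusted by Benjamini-Hochberg, threshold 0.05). Blastocyst KO and WT were fitted on 4 arrays and stages on 8 arrays with genotype as covariate. Tables and figures used Python 3.11.15, pandas 2.3.3, numpy 2.4.6 and matplotlib 3.10.9. The members and lists were chosen with earlier results of these data known. All members are named with all probe sets, and from each other list up to 5 genes with the largest called difference and up to 2 without a call; likeness names the nearest genes.

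Each fit was run on simulated data in which 200 of 22519 probe sets were changed. With each probe set's spread set to its estimated one, false calls made up 23.3% of calls for blastocyst KO minus WT, 8.73% for the common KO effect, 8.42% for blastocyst minus oocyte, 19.6% for implantation site minus blastocyst and 17.4% for implantation site minus oocyte, all above the nominal 5%; 8-fold changes were recovered in 63.6%, 93.9%, 77.3%, 77.3% and 75.8% in the same order, 4-fold changes in 35.8%, 59.7%, 47.8%, 44.8% and 34.3%, and 2-fold changes in 0%, 19.4%, 5.97%, 7.46% and 4.48%. A second simulation, added after seeing the first, drew spreads from the fitted prior: false calls were 20% (1 beside 4 true ones), 9.09%, 10.8%, 4% and 6.67% of calls, and 8-fold changes were recovered in 6.06%, 60.6%, 34.8%, 31.8% and 18.2%, 4-fold changes in 0%, 29.9%, 14.9%, 4.48% and 2.99%, and 2-fold changes in 0% of each. The share of false calls was thus above 5% in all 5 comparisons of the first simulation and in 4 of the second. The stage comparisons called many more probe sets than were changed in the simulations. For them, the shares of false calls and of recovered changes cannot be carried over to the measured data. Alternatives were other scaling, pseudocount, filter, probe set summary and variance model, a replicate block, 1 genotype alone, group means and leaving out each array.

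Blastocyst replicate numbers were checked for pairing: the deviations of same-numbered KO and WT arrays correlated with r = 0.00695 over 22519 probe sets, and no label says that numbers mark a shared batch.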

Additional observations from a re-analysis of the deposited data

Results flagged for a closer look

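The KO minus WT difference of some member probe sets had opposite directions in blastocysts and at another stage, without overlap of KO and WT in blastocysts. Such lack of overlap in blastocysts was found for 48.6% of all probe sets. At the other stages, with 1 array per genotype, overlap was not possible. How many of all probe sets would be flagged by this rule was not counted. The difference of these effects was tested with an interaction of stage and genotype, a test added after seeing the data; limma called no probe set of 22519 in either interaction. For Tjp1 the effect at the implantation site exceeded that in blastocysts by 1.07 on the log2 scale (adjusted p = 0.395), and for Ocln by 1.34 (representing probe set, adjusted p = 0.535) and 1.22 (further probe set, adjusted p = 0.629). The effect in oocytes exceeded that in blastocysts by 1.76 for the further Ocln probe set (adjusted p = 0.468) and by 3.23 for the further Epcam probe set (adjusted p = 0.178), both below background on the 2 oocyte arrays. Groups held at most 2 arrays, so none was checked for an outlying array.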

How the results depend on the processing

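Of 8 member calls for blastocyst minus oocyte 4 held in every alternative run (Cldn4, Cldn7, Cdh2 and Epcam), as did 6 of 7 for implantation site minus blastocyst (all but Cdh2) and 2 of 4 for implantation site minus oocyte (Cdh1 and Cdh2). The causes of the changes below were not tested. Members called higher for blastocyst minus oocyte numbered 4 with scaling to a common median and 4 to 7 when leaving out single arrays, the lowest without the KO oocyte array. For implantation site minus blastocyst they numbered 0 with the mean of all probe sets, 2 with group means and 0 to 2 when leaving out arrays. For implantation site minus oocyte they numbered 1 with scaling to a common median, no filter, probe sets without suffix or no intensity trend, 0 with WT arrays only, and 0 to 2 when leaving out arrays. In blastocyst KO minus WT, 0 to 1 members were called higher when leaving out arrays, Epcam without the array labelled WT replicate 2. Over all probe sets that comparison gave 10 higher and 1 lower with quantile normalization, 39 and 1 with scaling to a common median, 19 higher with a pseudocount of 50, 18 with the upper 30%, 0 with the mean of probe sets and 0 without the intensity trend. Leaving out arrays gave 1 to 544 higher and 0 to 28 lower, with 544 and 28 without the array labelled WT replicate 2. The replicate numbers are not shown to pair the samples, and the replicate block gave 375 higher and 47 lower with 0 members called. The common KO effect gave 0 to 2 higher when leaving out arrays. Blastocyst minus oocyte gave 2418 higher and 1511 lower with the mean of probe sets, 3581 higher without suffix, and 3948 to 6005 higher and 2331 to 3604 lower when leaving out arrays. Implantation site minus blastocyst gave 982 higher and 1838 lower with the mean of probe sets, 1538 and 1667 with WT arrays only, and 1347 to 3219 higher and 1774 to 4499 lower when leaving out arrays. Implantation site minus oocyte gave 1626 higher and 1472 lower with the mean of probe sets, 2789 higher without suffix, 2050 lower with WT arrays only, and 2895 to 4437 higher and 2117 to 3227 lower when leaving out arrays.

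Among single arrays, members at least 2-fold higher in KO oocytes numbered 0 without suffix, and lower ones 2 with quantile normalization and 4 with scaling to a common median. At the implantation site 1 was higher with the mean of probe sets and with probe sets without suffix, and 0 were lower with quantile normalization, common median or pseudocount. Directions without a call turned as follows. In blastocyst KO minus WT, F11r was 0.15 with quantile normalization and 0.66 with the mean of probe sets, Cdh1 0.0562 with quantile normalization, and leaving out arrays gave Cldn6 -1.08 to 0.14, F11r -0.40 to 0.37, Cdh2 -1.70 to 0.00617. For the common KO effect, scaling to a common median gave F11r -0.0427 and Cdh1 -0.0673, and leaving out arrays gave Cldn4 -0.59 to 0.11, Cldn6 -0.32 to 0.21, F11r -0.00971 to 0.30, Cdh1 -0.38 to 0.39. For implantation site minus blastocyst, Ocln was 0.16 with quantile normalization, 0.33 with a common median and 0.64 with KO arrays only, and leaving out arrays gave Ocln -0.56 to 0.50. For implantation site minus oocyte, F11r was -0.00838 with quantile normalization and -0.66 with the mean of probe sets, Epcam 2.21 with the mean (then called) and 0.91 with WT arrays only, and leaving out arrays gave Cldn4 -0.20 to 1.06, Epcam -2.24 to 0.96. Tjp1 and Epcam have no probe set without suffix and Cldn6 is not in the upper 30%. Array number and background signal limit the dim members Cldn6 and Ocln and every unreplicated difference.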
